A study of Mus musculus with 265 samples.

Results

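Clustered distal regions are stretches of the genome in which several accessible regions lie close together and away from the start of any protein-coding gene. A region of the single-cell ATAC-seq matrix was taken as distal when its midpoint lay more than 1 kb from every start site of a protein-coding transcript (GENCODE vM21), and neighbouring distal regions were chained where the gap between them was at most 12.5 kb. Chains of 4 or more regions were kept. Of the 20103 regions of the matrix, 10015 (49.8%) were distal, and 1089 of these (10.9%) fell into 230 chains, which are compared here with the 8926 unchained distal regions. The matrix holds fewer regions than the study describes, those outside it were not analysed here, and the number of chains depends on how densely regions lie.

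The cells were ERt2-Ikaros B3 cells, a line of mouse pre-B cells that carries an Ikaros protein fused to a hormone-binding domain and activated by 4-hydroxytamoxifen. All groups carry this fusion, and they are untreated cells (0 h) and cells after 24 h with 20 mM 4-hydroxytamoxifen as the labels state it, with a further dose at about 12 h. Each time-point was captured in 2 Fluidigm C1 runs of 48 and 47 cells (0 h) and 60 and 72 cells (24 h), and the runs were the replicates of all tests. A run holds cells of 1 time-point only, so that run and time cannot be told apart, the cells are 1 cell line, and no source used here states that the runs were separate cultures, in which case p-values measure only the spread between these runs.

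Distal accessible regions often are enhancers, stretches of DNA where transcription factors bind and raise transcription of a gene that can lie far away. Genes that define a cell type tend to be surrounded by several such elements, and dense groups of them have been called super-enhancers or stretch enhancers. In pre-B cells the factors Pax5, Ebf1, E2A and Ikaros bind many distal elements, and Ikaros limits pre-B cell growth and supports the step to the next stage.

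The sequences of 3 chains show what a chain consists of. The first lies within the Dlg2 gene, which codes for a synaptic scaffold protein, and held the only chained region that passed the region test. The second lies in and upstream of Pax5, the factor that keeps B cells in their lineage, and the third lies between genes nearest to the chemokine receptor gene Ccr1 and was among those with higher signal at 24 h. All 6 regions of the first chain and the 3 regions of each other chain detected in most cells are given as the plus strand of mm10, read as coordinates counted from 1 with both ends included. Capitals mark letters that match, on either strand, CAGCTG (an E-box bound by E2A), GGGAA (the core of Ikaros sites), AGGAAGT (ETS factors), CCCNNGGGA (EBF1), TGTGGTT (RUNX), TGANTCA (AP-1) or AGGGGGC (part of the CTCF site), and such matches may overlap.
Dlg2 chain, chr7:92420568-92420703: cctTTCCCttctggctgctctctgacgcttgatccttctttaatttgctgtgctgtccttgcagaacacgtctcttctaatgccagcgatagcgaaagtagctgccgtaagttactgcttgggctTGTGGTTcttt
Dlg2 chain, chr7:92427849-92427973: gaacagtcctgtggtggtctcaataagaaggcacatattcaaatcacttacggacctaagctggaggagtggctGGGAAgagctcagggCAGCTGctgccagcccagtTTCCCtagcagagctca
Dlg2 chain, chr7:92440223-92440362: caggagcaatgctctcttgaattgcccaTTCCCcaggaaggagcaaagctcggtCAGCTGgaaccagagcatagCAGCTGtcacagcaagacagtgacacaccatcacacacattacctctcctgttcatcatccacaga
Dlg2 chain, chr7:92441817-92441927: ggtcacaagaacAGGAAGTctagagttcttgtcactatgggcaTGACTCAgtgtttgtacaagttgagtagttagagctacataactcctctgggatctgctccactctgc
Dlg2 chain, chr7:92442282-92442381: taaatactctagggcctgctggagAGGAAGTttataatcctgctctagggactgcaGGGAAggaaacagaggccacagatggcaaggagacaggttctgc
Dlg2 chain, chr7:92445964-92446043: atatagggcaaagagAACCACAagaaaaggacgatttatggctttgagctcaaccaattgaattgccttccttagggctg
Pax5 chain, chr4:44705291-44705441: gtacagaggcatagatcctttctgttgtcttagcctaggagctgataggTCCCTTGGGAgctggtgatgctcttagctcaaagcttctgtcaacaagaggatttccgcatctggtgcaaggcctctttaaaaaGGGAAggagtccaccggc
Pax5 chain, chr4:44706108-44706231: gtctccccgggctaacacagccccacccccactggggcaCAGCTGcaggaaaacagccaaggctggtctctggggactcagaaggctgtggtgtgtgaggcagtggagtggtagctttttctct
Pax5 chain, chr4:44709186-44709305: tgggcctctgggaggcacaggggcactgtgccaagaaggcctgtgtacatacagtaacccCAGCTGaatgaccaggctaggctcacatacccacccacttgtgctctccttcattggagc
Ccr1 chain, chr9:123924129-123924335: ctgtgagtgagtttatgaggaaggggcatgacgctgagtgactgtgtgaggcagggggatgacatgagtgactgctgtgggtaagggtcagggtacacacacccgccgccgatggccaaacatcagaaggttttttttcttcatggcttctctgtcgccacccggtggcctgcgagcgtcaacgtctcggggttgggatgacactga
Ccr1 chain, chr9:123924779-123924934: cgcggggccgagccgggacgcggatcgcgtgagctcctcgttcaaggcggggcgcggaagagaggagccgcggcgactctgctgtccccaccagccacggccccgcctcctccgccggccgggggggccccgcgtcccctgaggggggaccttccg
Ccr1 chain, chr9:123929071-123929180: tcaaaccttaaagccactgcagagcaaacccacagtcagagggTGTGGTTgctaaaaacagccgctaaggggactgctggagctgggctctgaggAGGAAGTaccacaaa

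In windows of 150 bp around the region midpoints, the E-box was found in 18.4% of chained regions, 18.7% of unchained distal regions and 13.3% of all regions. The Ikaros core was found in 40.0% of chained, 40.4% of unchained distal and 39.2% of all windows. The ETS letters were present in 15.7% of chained and 17.9% of unchained distal windows (12.0% of all), and the EBF1 letters in 13.7% and 11.8% (8.62% of all). RUNX matches were found in 8.17% of chained and 11.8% of unchained distal windows (6.70% of all). AP-1 matches were found in 6.06% and 5.83% (3.85% of all), and the CTCF letters in 6.98% and 6.82% (8.61% of all). A match is a description of the sequence and not a bound site.

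Most chains were short. Of the 230 chains, 132 held 4 regions, 54 held 5, 24 held 6, 15 held 7, 3 held 8 and 2 held 9 regions. A chain spanned a median of 14 kb, from 1.93 kb at Rps6ka2 to 47.4 kb at Dnajb12, and the regions themselves covered 3.97% of the summed span of 3521 kb. The median gap between neighbours was 2725 bp, the widest gap inside a chain was 12484 bp and the narrowest gap left out by the limit was 12511 bp. A further 358 groups of 3 distal regions fell just short of the size limit. In 32 chains at least 1 gap was under 150 bp, the size at which the authors called peaks, so some neighbours may be pieces of 1 peak. When regions less than 150 bp apart were counted as 1 region, a setting chosen after seeing the data, 217 chains were left.

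Chained regions resembled unchained distal regions in build. Median width was 136 bp against 135 bp, median GC content 54% against 52%, and 3.73% against 4.15% had more than 1 copy in the genome at 90% identity over 80% of their length. Chained regions lay in introns less often by count (33.7% against 41.8%) and between genes more often (62.3% against 52.6%), and their median distance to a start site was 22.9 kb against 18.9 kb. Regions within 1 kb of a start site were richer in GC, with a median of 65.3%. In all, 106 chains lay between genes with every region, 61 lay with every region in 1 gene, and 63 were mixed. The nearest start site of a chain was a median of 15.1 kb away, from 1.02 kb to 423 kb, and 180 chains had one within 50 kb.

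The identity of the cells was checked at start sites. Of 12 pre-B cell marker genes, 9 had a region within 1 kb of a start site, detected in up to 32.2% of cells (Pax5). Regions were found at 1 of 8 T cell markers (Cd3d, 6.61% of cells), 1 of 6 myeloid markers (Lyz2, 2.64%) and 1 of 4 erythroid markers (Tfrc, which dividing cells of other types also use, 19.4%). The runs held 164357, 92639, 122586 and 142611 counts in all, in the order 0 h run 1, 0 h run 2, 24 h run 1 and 24 h run 2, which is the order used throughout. The median cell held 2898, 1787, 1840 and 1676 counts.

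The first comparison asked whether distal regions carry more signal where they are clustered. A chained region gathered 15.6, 9.31, 7.76 and 5.66 counts per 100 cells in the 4 runs, and an unchained distal region 14.3, 8.80, 7.03 and 5.22. The ratio of chained to unchained signal per region was therefore 1.09, 1.06, 1.10 and 1.08, above 1 in 4 of 4 runs. On the log2 scale the mean ratio was 0.12 ± 0.03 (SD, n = 4), with p = 0.12 in a two-sided exact sign-flip test over runs, the smallest p that 4 runs allow. With single-copy regions only, the ratios were 1.10, 1.07, 1.12 and 1.10. A chained region was detected in a median of 11 of 227 cells and an unchained distal region in 10, against 18 for a region within 1 kb of a start site.

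The second comparison asked whether clustered regions lost or gained signal over the 24 h. Chained regions held 4.95% and 5.14% of the counts of the 0 h runs, and 4.14% and 3.11% of those of the 24 h runs. Both 24 h runs lay below both 0 h runs, by a mean of 1.42 percentage points, with p = 0.33 in a two-sided exact permutation test, the smallest p that 2 against 2 runs allow. Unchained distal regions showed the same order of runs, with 37.2%, 39.9%, 30.7% and 23.5% of the counts, while regions near start sites held 57.8%, 55%, 65.2% and 73.4%. Because these shares add to 100%, a lower distal share and a higher start-site share are 1 measurement. Per cell and region, start-site regions gave 19.6, 10.7, 13.2 and 14.4 counts per 100 cells.

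The ratio of chained to unchained signal differed little between time-points. It averaged 1.07 at 0 h and 1.09 at 24 h, a difference of 0.0194 beside an SD of 0.0236 between the 0 h runs and 0.0151 between the 24 h runs (n = 2 each), and the exact permutation p was 0.67. Relative to start-site regions, the signal per chained region was 0.79, 0.87, 0.59 and 0.39 in the 4 runs, and that per unchained distal region 0.73, 0.82, 0.53 and 0.36. Chained and unchained distal regions thus stood in nearly the same proportion in every run, while both were lower against start-site regions in the 24 h runs.

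**Figure D1:**
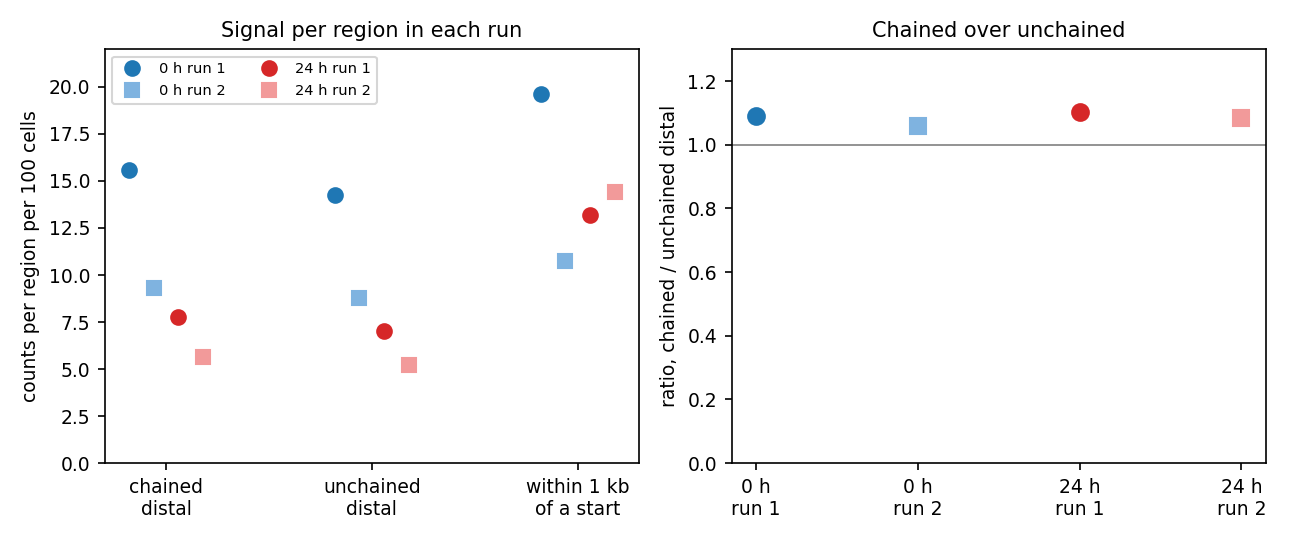
Left, counts per region per 100 cells (y axis) for chained distal regions, unchained distal regions and regions within 1 kb of a start site, with 1 point per C1 run; right, the ratio of chained to unchained distal signal per region in each run, with a line at 1. The ratio lay from 1.06 to 1.10 in the 4 runs, while both distal classes were lowest in 24 h run 2, at 5.66 and 5.22 counts per 100 cells.

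Region by region, the direction of change also was alike in both distal classes. In the edgeR quasi-likelihood fit over all 20103 regions, the median log2 change from 0 h to 24 h was -0.59 for chained regions, -0.61 for unchained distal regions and 0.30 for regions near start sites. Both 24 h runs lay below both 0 h runs in 386 chained regions (35.4%) and in 37.5% of unchained distal regions, where the share among all regions tested was 25.7%. Both lay above in 124 chained regions (11.4%) and 11.2% of unchained distal regions, against 19.3% of all. Chains of 6 or more regions had similar values, with a median log2 change of -0.51 and 34.4% of their 291 regions lower in both runs.

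Only 1 chained region passed an adjusted p of 0.05 in this fit. Of all regions, 3 (0.0149%) were called lower and 8 (0.0398%) higher at 24 h, and the call in a chain was the region chr7:92442282-92442381 in an intron of Dlg2 (its sequence is given with those of the Dlg2 chain). It held 26 and 13 counts in the 0 h runs and 1 and 0 in the 24 h runs. It was detected in 28 of 95 cells at 0 h (29.5%, exact 95% interval 20.6 to 39.7%) and in 1 of 132 cells at 24 h (0.758%, 0.0192 to 4.15%), intervals that cover counting error only. Its log2 change was -4.94 ± 1.04 (SE), with an adjusted p of 0.0337 by edgeR, and it was not called when either 0 h run or 24 h run 2 was left out, after thinning, by detection, by DESeq2, with cell numbers as offset or among single-copy regions alone. Leaving out 24 h run 1 instead gave 35 chained regions (3.21%) called lower and 11 (1.01%) higher, against 2.81% and 1.06% of unchained distal regions and 1.7% and 2.27% of all regions in that fit.

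Summing the regions of a chain gives more counts per row, a median of 86.5 per chain and from 34 to 477. The chains were fitted beside every region outside them, 19244 rows in all, by the same edgeR test. The median log2 change of the 230 chains was -0.63, against -0.07 over all rows, and 183 chains had a value below 0 and 47 above. In 118 chains (51.3%) both 24 h runs lay below both 0 h runs, and in 19 (8.26%) both lay above, against 25.8% and 19% of all rows. At an unadjusted p under 0.05, 50 chains (21.7%) were lower and 4 (1.74%) higher. The shares of all rows were 7.05% and 4.84%, but the other rows are single regions, 10088 of them near start sites. In the region fit the lower share was 10.7% of chained and 11.9% of unchained distal regions, and the higher share 1.93% and 2.94%. Taken singly, chained regions thus were not lower more often than unchained distal ones. The part of summing in the values of the chains was not tested.

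After adjustment over all rows, no chain was called lower (0 of 230, as of 0% of rows) and 1 was called higher (0.0416% of rows were). DESeq2 also called 0 chains lower, as of 0% of rows. The smallest adjusted p of a lower chain was 0.0728 by edgeR. Without 24 h run 1 the same test called 25 chains (10.9%) lower and 2 (0.870%) higher, where calls rose over all rows as well, to 1.74% lower and 2.27% higher, and to 2.85% lower among unchained distal regions. That fit has 1 run at 24 h, which is assumed to vary like the 0 h runs, and the cause of the higher count was not tested. A biological coefficient of variation of 0.414 was estimated between runs of a time-point.

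Chains were also set against regions of more even depth. Among rows detected in at least 10% of cells, 229 chains had a median of 87 counts and 804 unchained distal regions a median of 46. In that fit 75 chains (32.8%) and 180 unchained distal regions (22.4%) were lower at an unadjusted p under 0.05, against 7.02% of all its rows, and 86 of 3823 start-site regions (2.25%). The median log2 change there was -0.83 for chains, -0.54 for unchained distal regions and 0.17 for start-site regions. The chains held more counts than the distal regions in this set as well, and the part of that depth in the difference was not tested.

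**Figure D2:**
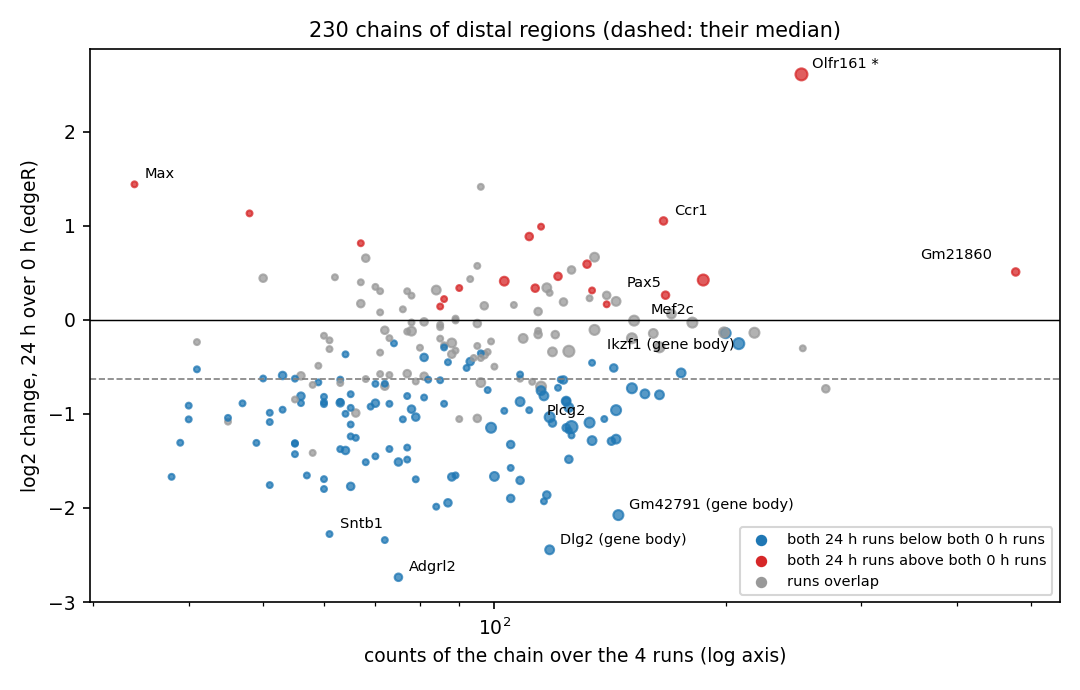
Log2 change from 0 h to 24 h by edgeR (y axis) against the counts of the chain over the 4 runs (x axis, log scale) for the 230 chains, with point size growing with the number of regions and an asterisk after the name of the called chain. Blue points, 118 chains, have both 24 h runs below both 0 h runs, red points, 19 chains, have both above, and the dashed line is the median of -0.63.

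At the level of cells both 24 h runs also lay below both 0 h runs. A chain was detected through any of its regions in a median of 35.4% and 23.4% of 0 h cells and 18.3% and 11.8% of 24 h cells. With every cell thinned to 837 counts, which left out 23 of the 227 cells, the medians were 14.6%, 13%, 10.6% and 6.35%. Signal in 2 or more regions of a chain within 1 cell was rare, with a median of 9 of the 227 cells per chain and from 1 to 83.

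The chains with the largest lower values at 24 h, taken among those with few multi-copy regions and runs that did not overlap, lay in or near Dlg2, Adgrl2, Gm42791, Sntb1 and Ctdp1. The chain in Dlg2 (6 regions, 115 kb from the start of Ccdc90b) held 68 and 32 counts at 0 h and 10 and 8 at 24 h. Its log2 change was -2.44 ± 0.51 (SE, adjusted p = 0.0728 by edgeR), and in 5 of its 6 regions both 24 h runs lay below both 0 h runs. Its regions were unequal in level, as the plot of signal along 4 chains shows, with the most counts in the fourth and the fifth region of the chain. The chain was detected in 64.6% and 38.3% of 0 h cells and in 15% and 8.33% of 24 h cells.

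The chain nearest Adgrl2, an adhesion receptor gene whose start lay 378 kb away, held 35, 30, 8 and 2 counts over 5 intergenic regions. Its log2 change was -2.74 ± 0.62 (SE, adjusted p = 0.111 by edgeR), and all 5 regions had a value below 0. The chain in Gm42791, a predicted gene overlapping Katnal1, which codes for a katanin-like protein that cuts microtubules, held 73, 44, 16 and 12 counts over 7 intronic regions. It changed by a log2 of -2.08 ± 0.47 (SE, adjusted p = 0.108), with 6 of 7 regions below 0. Both chains were picked for 24 h runs below the 0 h runs, so that order is no result, and neither passed the adjusted threshold in the main fit. With run totals in place of TMM, the chains in Dlg2 (adjusted p = 0.00644), near Adgrl2 (0.0118) and in Gm42791 (0.0158) were called lower by edgeR, among 4 chains (1.74%) called lower in that fit, in which 0.135% of all rows were. Without 24 h run 1 their log2 changes were -2.67, -4.06 and -2.35. The same chains were called lower among rows detected in at least 10% of cells, with 2.18% of chains and 0.288% of all rows. Cell numbers as offset called those in Dlg2 and Gm42791, and a term for run number those in Dlg2 and near Adgrl2. With DESeq2, detection, thinning, single-copy regions or a distal limit of 2.5 kb, 0 chains were called lower.

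Fewer counts stood behind the chains at Sntb1 and Ctdp1. In an intron of Sntb1, which codes for a syntrophin of the membrane skeleton, 4 regions summed to 37, 14, 8 and 2 counts. Their log2 change was -2.28 ± 0.67 (SE, adjusted p = 0.204 by edgeR), and -3.62 without 24 h run 1. The 4 intergenic regions nearest Ctdp1, a phosphatase gene of the RNA polymerase II cycle, summed to 34, 26, 11 and 1 counts. Their log2 change was -2.34 ± 0.65 (SE, adjusted p = 0.188 by edgeR, and 0.0479 with run totals), and -4.84 without 24 h run 1.

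The 5 chains with the largest higher values among those of the same kind also did not pass the adjusted threshold. Nearest Ccr1, 5 regions over 5.05 kb held 36, 18, 63 and 49 counts, with all 5 above in both 24 h runs and a log2 change of 1.05 ± 0.43 (SE, adjusted p = 0.331 by edgeR). Nearest Max, which codes for the partner of Myc, 4 regions held 6, 3, 14 and 11 counts, and the log2 change was 1.44 ± 0.78 (SE, adjusted p = 0.482). Nearest Arid1a, a subunit gene of the BAF chromatin remodelling complex, 4 regions held 11, 4, 13 and 20 counts, and the log2 change was 1.13 ± 0.66 (SE, adjusted p = 0.521). Chains near Rassf3 and Ssbp4 changed by a log2 of 0.99 ± 0.49 and 0.89 ± 0.49 (SE), with adjusted p-values of 0.418 and 0.490. In the Max chain no run held more than 14 counts.

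**Figure D3:**
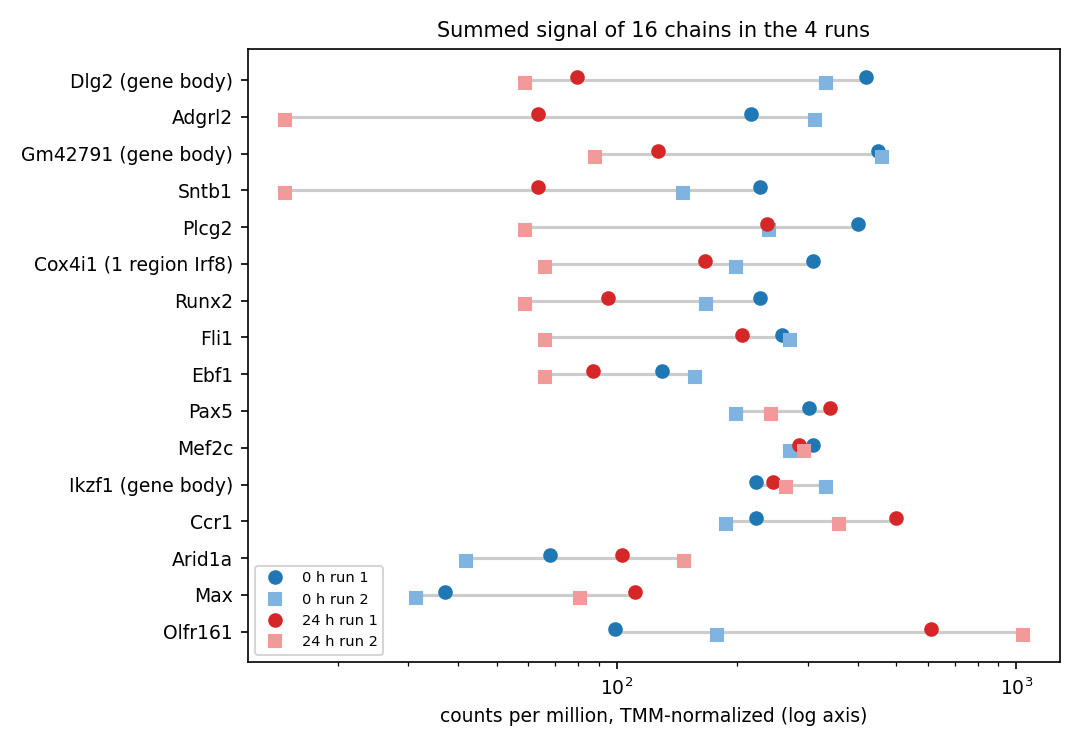
Summed signal of 16 chains as TMM-normalized CPM (x axis, log scale), with 1 point per C1 run and a grey bar from the lowest to the highest run. The chains at Dlg2, Adgrl2, Gm42791 and Sntb1 were picked for 24 h points that lie left of the 0 h points. At Mef2c the 4 points lie together from 271 to 309. In the chain nearest Olfr161 the 24 h points lie to the right at 610 and 1037.

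The only called chain was 1 of the 2 chains of 9 regions. It lies between genes on chromosome 16 (3231763 to 3241456), 350 kb from the start of the olfactory receptor gene Olfr161, and holds 9 regions in 9.69 kb. It held 16 and 17 counts at 0 h and 77 and 141 at 24 h, a log2 change of 2.61 ± 0.45 (SE, adjusted p = 0.0407 by edgeR). All 9 regions were above in both 24 h runs, and it was detected in 14.6% and 21.3% of 0 h cells and in 35% and 44.4% of 24 h cells.

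In this chain 8 of the 9 regions had more than 1 copy in the genome, up to 9, and 6 of the 27 further copies lay within the chain itself. Reads of such copies can be placed at any of them, so the place of this signal is uncertain, and the part of read placement in the change was not tested. The region with 1 copy held 1, 3, 10 and 20 counts. The call was lost after thinning (adjusted p = 0.661), by detection alone (0.292) and with distal regions taken from 2.5 kb on (0.195), where the log2 change stayed above 0, and the chain had too few regions left when only single-copy regions were used.

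Other chains of many copies were few. In 10 of the 230 chains more than 25% of the regions had several copies, and 13 had any such region. On chromosome Y (90761391 to 90772269), 5 regions near Gm21860, all multi-copy, held 125, 70, 120 and 162 counts and were detected in 167 of the 227 cells, the most of any chain. A chain of 6 regions, 5 nearest Rdm1 and 1 nearest Arl4d, a small GTPase gene, held 60, 43, 40 and 32 counts, and 4 of the regions nearest Rdm1 were multi-copy. Near Rsph3a and Rps6ka2 all 4 regions were, with 28, 23, 21 and 13 counts and 26, 13, 15 and 6 counts.

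Among the other chains with the most regions, none passed the adjusted threshold. Plcg2 encodes the phospholipase that acts below the pre-B cell receptor, and the 9 regions of its chain, 8 of them upstream of the gene, held 65, 23, 30 and 8 counts. That chain changed by a log2 of -1.14 ± 0.52 (SE, adjusted p = 0.372 by edgeR), with both 24 h runs below both 0 h runs after normalization by a narrow margin (240 against 238 normalised counts for the nearest runs). Without 24 h run 1 the value was -2.46. The chain nearest Nanos3 and Zswim4 (8 regions) held 75, 38, 45 and 50 counts (log2 change -0.25 ± 0.40), that nearest Olfr1423 (8 regions) 54, 26, 54 and 53 (0.42 ± 0.41), and that nearest Ywhaz, a 14-3-3 protein gene (8 regions), 53, 18, 35 and 19 (-0.33 ± 0.48).

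Of the 7-region chains, those near Dnajb12, a co-chaperone gene, Egr3, an early growth response factor, Csk, the kinase that holds Src-family kinases inactive, Ptma, a prothymosin gene, and Crb2, a cell polarity gene, had log2 changes from -0.29 to -0.03. Each SE was between 0.40 and 0.43, so none of these values differed from 0 by its own error. They were detected in 83 to 104 cells through any region and in 19 to 29 cells through at least 2 regions.

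The genes near chains were then read against 4 gene lists. In all, 272 of 21924 protein-coding genes (1.24%) were the nearest to at least 1 chained region. Of 61 transcription factor genes of the B lineage, 9 (14.8%) were, namely Pax5, Ebf1, Irf8, Irf2, Fli1, Runx2, Mef2c, Zeb1 and Egr1. Of 49 pre-B cell genes, 5 (10.2%) were, namely Vpreb3, Cd79b, Plcg2, Inpp5d and Cd24a. Of 27 cell cycle genes only Ccnd2 (3.70%) was, and of 34 genes of other lineages none was.

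These shares also follow how many genes of a list have distal regions at all. At least 1 distal region was nearest to 83.6% of the B-lineage factors, 71.4% of the pre-B cell genes, 44.4% of the cell cycle genes, 23.5% of the genes of other lineages and 22.9% of all genes. Among genes with a distal region, a chained one was nearest in 17.6%, 14.3%, 8.33% and 0% of the lists and in 5.41% of all genes. The lists were chosen with earlier results of these data known and no test was made of these counts.

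**Figure D4:**
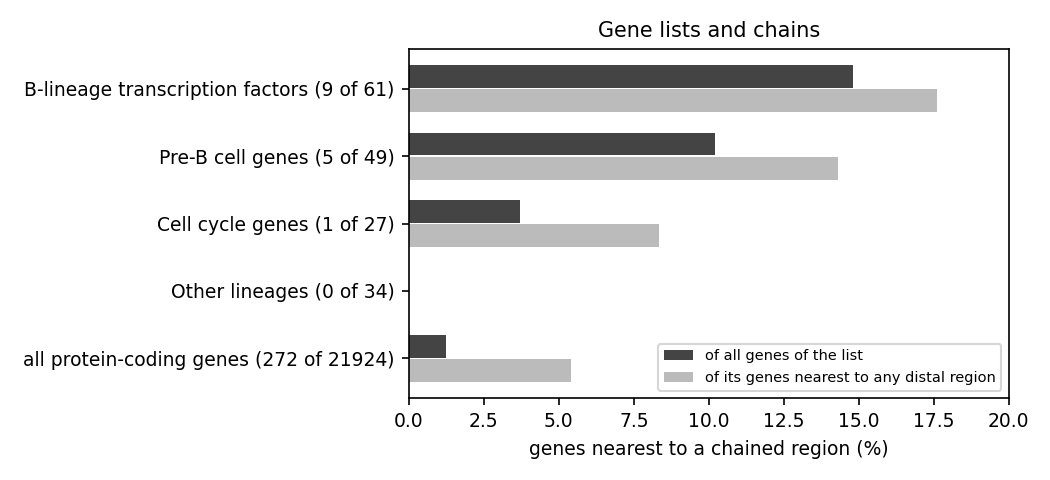
Percentage of genes that are nearest to at least 1 chained region (x axis) for 4 gene lists and for all protein-coding genes, as a share of all genes (dark bars) and of the genes nearest to any distal region (light bars). The share is 14.8% for B-lineage transcription factors and 1.24% for all genes, and among genes with a distal region 17.6% and 5.41%.

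At the transcription factor genes, 7 of 9 chains had both 24 h runs below both 0 h runs and none had both above, with a median log2 change of -0.97 from -1.37 to 0.20. Over all chains the median was -0.63, with 51.3% below both and 8.26% above both (25.8% and 19% of all rows). None of the 9 was called, and 3 had an unadjusted p under 0.05 and a lower value, as 21.7% of all chains had. These were the chains of Runx2, a RUNX factor gene, whose chain of 4 intronic regions held 37, 16, 12 and 8 counts (log2 change -1.37 ± 0.56, adjusted p = 0.327 by edgeR), and Irf2 and Irf8, genes of interferon regulatory factors. The chain of Zeb1, a zinc-finger repressor gene, falls outside the rule for named chains and was added after its values were seen. It held 19, 9, 10 and 1 counts over 4 regions. Its log2 change was -1.31 ± 0.79 (SE, adjusted p = 0.545 by edgeR), and -3.70 without 24 h run 1.

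Near Irf2, 4 regions within 2.43 kb held 24, 21, 13 and 5 counts, a log2 change of -1.37 ± 0.60 (SE, adjusted p = 0.349 by edgeR). The chain counted for Irf8 had 7 regions, of which 6 were nearest Cox4i1, a respiratory chain subunit gene, and 1 was nearest Irf8. The whole chain held 50, 19, 21 and 9 counts, a log2 change of -1.15 ± 0.52 (SE, adjusted p = 0.372), and the region nearest Irf8 held 8, 3, 3 and 0 of them. Without 24 h run 1 the log2 change of the chain of Cox4i1 and Irf8 was -1.96. After normalisation the 24 h runs lay below the 0 h runs in both chains, at 103 and 36.8 CPM against 148 and 219 CPM near Irf2.

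The chain in Fli1, an ETS factor gene, held 42, 26, 26 and 9 counts over 4 intronic regions, and its log2 change was -0.97 ± 0.52 (SE, adjusted p = 0.475 by edgeR). Ebf1, which starts the B cell programme together with E2A, had a chain of 4 regions around its start with 21, 15, 11 and 9 counts and a log2 change of -0.88 ± 0.60 (SE, adjusted p = 0.596). Near Egr1, 4 regions held 35, 19, 22 and 16 counts (log2 change -0.51 ± 0.50, adjusted p = 0.747). Each of these 3 changes was less than 2 SE from 0. Without 24 h run 1, the log2 change of the chain in Fli1 was -1.98.

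Mef2c and Pax5 were the 2 factor genes whose chain runs overlapped. The chain nearest Mef2c, a factor that pre-B cells use in their response to the pre-B cell receptor, held 50, 26, 36 and 40 counts over 7 regions 62.3 kb from the start, with a log2 change of -0.01 ± 0.43 (SE, adjusted p = 0.999 by edgeR). The chain at Pax5, 3 regions in its introns and 3 upstream, held 49, 19, 43 and 33 counts, a log2 change of 0.20 ± 0.45 (SE, adjusted p = 0.905).

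Within the Pax5 chain 3 regions had a value below 0 and 3 above, and none passed the adjusted threshold. The intronic region chr4:44709186-44709305 held 19, 6, 11 and 1 counts, with runs that overlapped after normalisation, and the upstream region chr4:44714224-44714366 held 0, 0, 8 and 5 counts. With 0 counts in both 0 h runs, the second change has no defined size. In general, all regions of a chain had a value on the same side of 0 in 46 chains (lower) and 7 chains (higher), while 177 chains held regions of both signs.

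At the pre-B cell genes, 4 of 5 chains had both 24 h runs below both 0 h runs, with a median log2 change of -0.95, where 51.3% of all chains and 25.8% of all rows lay below both and the median of all chains was -0.63. Beside Plcg2, these were Inpp5d, whose product SHIP1 removes a phosphate from a signalling lipid, Cd24a, a surface protein gene of early B cells, and Vpreb3, a gene of the pre-B cell stage. The chain in the introns of Inpp5d held 39, 13, 12 and 14 counts over 5 regions (log2 change -0.95 ± 0.54, adjusted p = 0.511 by edgeR). The chain counted for Cd24a had 3 regions nearest Qrsl1 and 1 nearest Cd24a, which held 5, 4, 0 and 1 counts. All 4 regions held 23, 16, 8 and 8 counts (-1.32 ± 0.61, adjusted p = 0.379).

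The chain near Vpreb3, closest to the start of Mmp11, held 19, 14, 13 and 9 counts (log2 change -0.62 ± 0.60, adjusted p = 0.739 by edgeR). Near Cd79b, which codes for a signalling chain of the receptor, the runs overlapped with 32, 5, 27 and 14 counts (0.26 ± 0.58, adjusted p = 0.903). The chain of the cell cycle gene Ccnd2, 102 kb from its start, held 24, 10, 15 and 7 counts (-0.59 ± 0.61, adjusted p = 0.755), and its runs overlapped as well.

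Chains were also set beside the start sites of their nearest genes. For 156 chains the nearest gene had a region within 1 kb of a start site, and over these the median log2 change was -0.63 for the chains and 0.22 for the start-site regions closest to the start. Of 3 genes chosen after their values were seen, Ebf1 had a start-site region, detected in 38 cells, with a log2 change of 1.24 ± 0.58 (SE) beside -0.88 for the chain. At Pax5 the value of the closest of 3 start-site regions, detected in 12 cells, was -1.74 ± 1.10 (SE) beside 0.20 for the chain, while all 3 together were detected in 35.4%, 25.5%, 35% and 31.9% of the cells of the runs. At Plcg2 the closest of 2 regions, detected in 9 cells, had 2.13 ± 1.44 beside -1.14 for the chain. None of these 3 start-site regions passed the adjusted threshold (adjusted p = 0.362, 0.561 and 0.594 by edgeR).

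A chain of 7 regions in Ikzf1, the gene of Ikaros itself, and its neighbour Fignl1 falls outside the rule for named chains and was chosen after its values were seen. It spans chr11:11753995-11788816 and held 36, 32, 31 and 36 counts, a log2 change of -0.11 ± 0.45 (SE, adjusted p = 0.951 by edgeR). The 4 runs did not separate the time-points.

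In this chain 5 of 7 regions lay with their midpoint in exons, 4 of them in Ikzf1 and 1 in Fignl1, where 4.04% of chained regions did overall. The region chr11:11769144-11769226, wholly within the last Ikzf1 exon, held 12, 10, 7 and 20 counts and was detected in 41 cells, the most of this chain. Of the 2 internal-exon regions, 90.8% and 91.9% of the bases were exonic. The cells carry an added ERt2-Ikaros fusion, and whether fragments over these exons came from the chromosomal gene or from the added sequence was not tested. The intergenic region chr11:11776924-11777058 of the same chain held 4, 7, 0 and 0 counts and did not pass the adjusted threshold (adjusted p = 0.236 by edgeR).

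**Figure D5:**
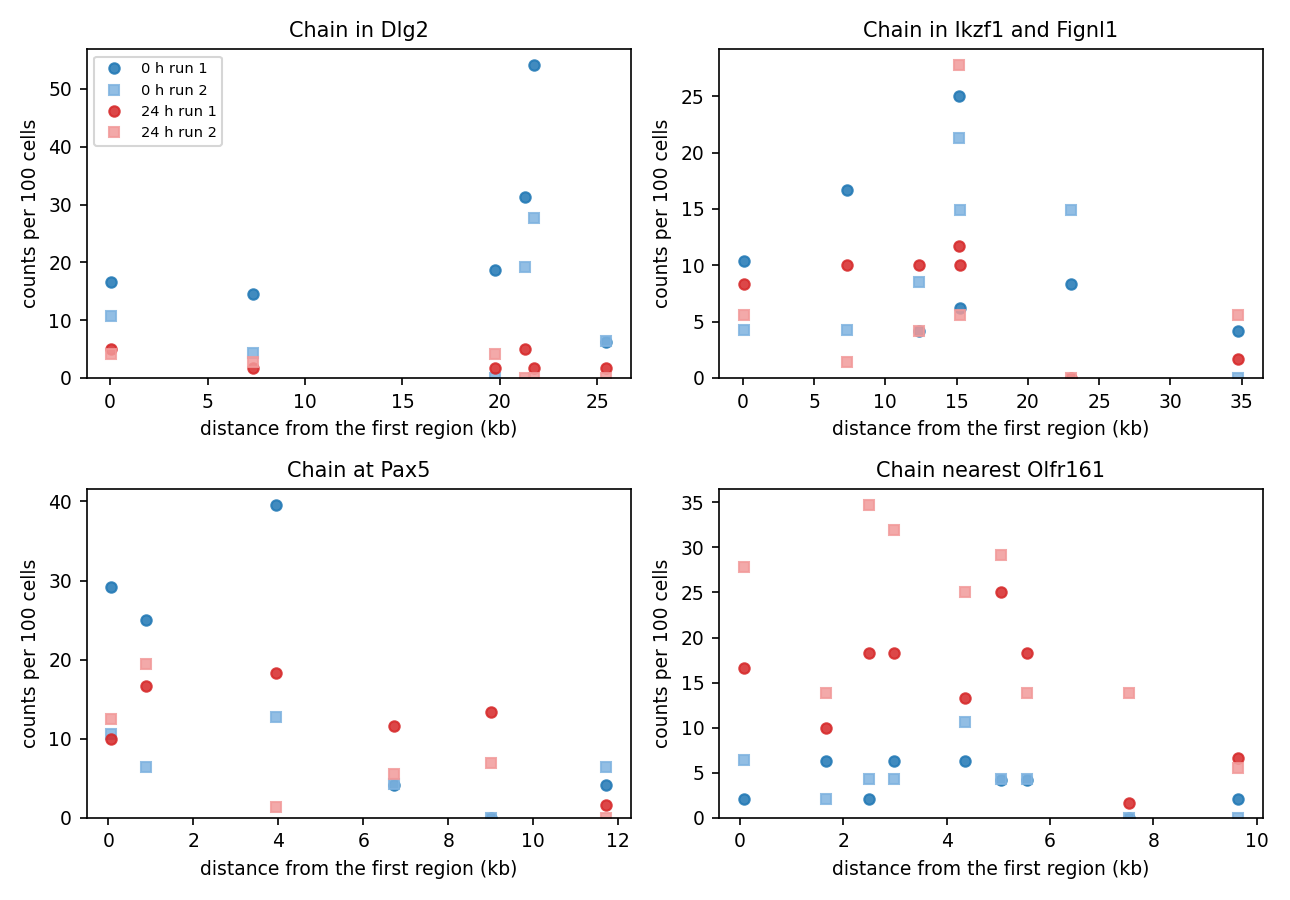
Counts per 100 cells (y axis) of every region of 4 chains against the distance of its midpoint from the first base of the chain in kb (x axis), with 1 point per C1 run. In the Dlg2 chain the 0 h runs are highest at 21.8 kb with 54.2 and 27.7 counts per 100 cells, in the chain nearest Olfr161 the 24 h runs lie above the 0 h runs at all 9 regions, and in the Pax5 and Ikzf1 chains the order of the runs differs from region to region.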

How the data were processed

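Single-cell ATAC-seq was analysed in 227 B3 cells of 4 Fluidigm C1 runs. The submitters' processing notes name Bowtie, Picard, HOMER and mm10. According to the methods, the authors mapped cells with Bowtie2, removed duplicates and called peaks on bulk samples. As read from its values, the deposited matrix holds whole-number counts of each cell per peak, not normalized and none above 2. The labels list 48, 63, 75 and 73 cells for the runs, of which 48, 47, 60 and 72 have a column. The study's own division of its cells between the time-points differs slightly from these columns. No column was left unused (0), and the 6 bulk samples were not analysed here.

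Counts were summed per run. The SE of an edgeR log2 change is its absolute value divided by the square root of the F statistic. It was derived from the test and not fitted separately. Tests used edgeR 4.0.16 in R 4.3.3 (quasi-likelihood test, TMM, Benjamini-Hochberg adjustment, threshold 0.05) over all regions, or over all chains and the regions outside them; "called" means past this threshold. Measures per run were tested by two-sided exact permutation or sign-flip tests (SciPy 1.17.1). Genomic copies were counted with BLAST 2.17.0 on GRCm38; 177 regions under 30 bases got no copy number. DESeq2 1.42.0, thinning and other chain limits were alternatives. Only the edgeR fit of chains was run on simulated data, and no result here rests on that run. No doublet caller was run, since capture sites were inspected by the study.

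Named chains were the 10 with most regions, the 5 in each direction with the largest change among those with at most 25% multi-copy regions and runs that did not overlap, all called chains, up to 8 per gene list, and up to 5 of many copies. The members and gene lists were chosen with earlier results of these data known. Depth per run and cell is given with the results; intervals cover counting error only, at 95%.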

Additional observations from a re-analysis of the deposited data

How the results depend on the processing

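The number of chains follows the limits chosen, with 86 chains at gaps of at most 5 kb, 451 at 25 kb, 588 with at least 3 regions and 44 with at least 6. Chains called lower numbered 4 with run totals (26 of all 19244 rows), 2 with cell numbers (2 of all rows) as offset, 5 among rows detected in 10% of cells (at Mapkapk2, Txnrd1, Adgrl2, Gm42791 and in Dlg2, beside 9 of 804 unchained distal and 0 of 3823 start-site regions), 1 at gaps of 5 kb (3 of all rows), 6 at 25 kb (15), 5 with at least 3 regions (10), 1 with at least 6 (3) and 3 with gene starts (10). Leaving out a run gave 0 to 25 lower and 1 to 2 higher, with 25 and 2 without 24 h run 1, where 335 and 437 of all rows were called. Chains called higher were 0 by detection, thinned, with single-copy regions or beyond 2.5 kb, and 2 at gaps of 25 kb. The call in Dlg2 was lost (0 chained regions lower) with cell numbers, DESeq2, detection, thinning or single-copy regions, and leaving out a run gave 0 to 35 chained regions lower and 0 to 11 higher, among 0 to 341 and 1 to 456 of all 20103 regions. The cause was not tested.

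Chains below in both 24 h runs were 36 of 86 at gaps of 5 kb, 230 of 451 at 25 kb, 298 of 588 with at least 3 regions and 20 of 44 with at least 6. Chains above were 7, 39, 44 and 3 of these. Under cell numbers 3 of 230 lay above. Among rows detected in 10% of cells 7 of 229 did (3.06%), against 11.6% of unchained distal and 25.1% of start-site regions. In the main fit 25.8% of all rows lay below and 19% above, and the shares of all rows in the other fits are not given here. The fall of the chained share lay from 0.910 to 1.94 percentage points without a run, and the mean log2 ratio of chained to unchained signal from 0.11 to 0.13. The change of that ratio was 0.00268 to 0.0361 without a run and -0.0085 with gene starts. With cell numbers as offset the median of all rows moved to -0.49 and that of the chains to -1.05.

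Run numbers are shared by the time-points without pairing their runs (the deviations of runs 1 and 2 correlated at -0.01 across rows). With the replicate block, 2 chains were called lower (near Adgrl2, adjusted p = 0.0409 by edgeR, and in Dlg2, 0.0252) and 1 higher, among 6 (0.0312%) and 10 (0.052%) of all rows.

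Of 584 values of 37 named chains under alternatives, 526 kept direction and side of the threshold, 28 passed it newly, 3 lost it and 27 changed sign. Leaving out a run moved the log2 change of Ywhaz from -0.92 to 0.15 (0.11 without 24 h run 2), of Dnajb12 from -0.33 to 0.071 (0.017 without 0 h run 2), of Csk from -0.28 to 0.047, of Ptma from -0.048 to 0.039, of Mef2c from -0.054 to 0.094 (0.011 and 0.0069 without 24 h runs 1 and 2), of Pax5 from -0.077 to 0.55 (-0.014 without 0 h run 2) and of Cd79b from -0.39 to 1.58 (-0.28 without 0 h run 2). With cell numbers it was -0.039 for Olfr1423, -0.28 for Pax5 and -0.28 for Cd79b, with thinning 0.053 for Ptma, 0.070 for Crb2 and 0.049 for Egr1, by detection 0.026 for Ptma and 0.19 for Mef2c, and among rows detected in 10% of cells -0.0027 for Pax5. For Mef2c it was 0.011 by DESeq2, 0.0081 and 0.018 with at least 3 and 6 regions, 0.015 with gene starts and 0.0024 beyond 2.5 kb.

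With 4 runs no exact test here can pass 0.05. A lower count can mean fewer cells with an open region or fewer fragments per cell, and these cannot be told apart in run sums.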

Other observations

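A pair of chains lay at the immunoglobulin heavy chain locus on chromosome 12, whose gene segments are not annotated as protein-coding and so were not among the start sites used. The chain from 113216008 to 113222996 (5 regions) ended 31.8 kb from Igha, the constant gene of IgA, and held 46, 13, 39 and 25 counts in the 4 runs. The chain from 115603048 to 115624547 (6 regions, 3 of them multi-copy) overlapped variable segments including Ighv1-67, with 22, 15, 33 and 14 counts. The log2 changes of 0.19 ± 0.48 and 0.32 ± 0.53 (SE) were smaller than their errors, with adjusted p-values of 0.916 and 0.870 by edgeR. Both chains were chosen for this note after their values were seen.

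Chains were found on 21 chromosomes, from 1 to 17 on each, and 30 of the 230 lay within 100 kb of another chain. In 51 chains the regions did not share a nearest gene, and 10 genes were nearest to more than 1 chain.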
